A study of Solanum lycopersicum with 18 samples.

Results

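The genes described here are 10 tomato genes of ripening ethylene: the ACC synthase genes ACS2 (Solyc01g095080), ACS4 (Solyc05g050010), ACS1A (Solyc08g081540) and ACS6 (Solyc08g008100), the ACC oxidase genes ACO1 (Solyc07g049530), ACO3 (Solyc07g049550), ACO4 (Solyc02g081190) and ACO5 (Solyc07g026650), and the ethylene-responsive genes E8 (Solyc09g089580) and E4 (Solyc03g111720). They were chosen by name, and every line of 9 m6A peak lists whose overlapping gene was one of them was taken. Of the 10 genes, 1 had a listed peak, out of 11176 genes overlapped by a peak in at least 1 list. That gene was E4, and its peak stood in 2 of the 9 lists.

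m6A is the methylation of adenosine within mRNA, and m6A-seq maps it by immunoprecipitating (IP) fragmented mRNA with an antibody and comparing the IP library with the input library made before the antibody step. The samples were pericarp of Cnr fruit at 42 days post-anthesis (DPA), of wild-type (WT) fruit at 42 DPA and of wild-type fruit at 39 DPA, with 3 replicates each, and each mRNA sample came from many fruits mixed together. Cnr (Colorless non-ripening) is a spontaneous epimutant of an SBP-box gene in the cultivar Ailsa Craig, which is also the wild type here, and its fruit do not ripen. No group had been given a treatment, and all fruit of a group came from 1 genotype at 1 age.

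Ethylene is made from S-adenosylmethionine, which ACC synthase turns into 1-aminocyclopropane-1-carboxylic acid (ACC) and ACC oxidase turns into ethylene. In tomato, ACS1A and ACS6 belong to the basal ethylene production of green fruit, while ACS2 and ACS4 belong to the burst of production at ripening, and ACO1 and ACO4 are the main ACC oxidase genes of the fruit. E8 encodes a dioxygenase related to ACC oxidase and E4 a peptide-methionine sulfoxide reductase, and both have long served as markers of ethylene response in ripening fruit.

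Each list held between 9246 and 10407 peaks, and the median number of IP fragments at a summit lay between 392 and 500. For each summit a list gives the fold enrichment, that is the IP fragments plus 1 over the background plus 1, together with the −log10 of its p-value and of its q-value. The background is the local input level, or a floor for the whole library where that is higher, and the floor lay between 44.6 and 51.1 fragments. At summits in the same position, the backgrounds of 2 lists of the same group, as multiples of their floors, differed by a median of 0.521% to 1.39% in the 9 such pairs, whereas those of lists from different groups differed by 13.5% to 28.4% in 27 pairs. Within a group the median chi-square of these differences was between 0.00106 and 0.0118, against 0.455 for counting noise alone, while that of the IP fragments was between 1.40 and 17.1. The 3 backgrounds of a group thus differed by less than the sampling noise and were counted as 1 sample, so that an input level has no replicates here and the spread of the fold enrichment comes from the IP libraries. The Cnr label could not be checked on the gene of the epimutation, Solyc02g077920, which had no peak in any list. Of the ripening regulators, RIN (Solyc05g012020) had a peak in 8 lists and the ethylene receptor gene NR (Solyc09g075440) in 9.

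To see which transcripts of ethylene synthesis carry an m6A peak in ripening and in Cnr fruit, the 10 genes were looked up in every list. None of the 4 ACC synthase genes had a peak in Cnr fruit at 42 DPA, in wild-type fruit at 42 DPA or in wild-type fruit at 39 DPA. The 4 ACC oxidase genes and E8 had none either. In all, 9 of the 10 genes had no peak in any of the 9 lists, and 2 of the 105726 lines named one of the 10 genes as overlapping. A total of 21413 gene identifiers were named anywhere in the lists, also as the neighbours of a peak, and 52.2% of these were overlapped by a peak in at least 1 list, a share that runs high because the identifiers named are those near peaks. A gene without a peak has no value in these files, so that a transcript without m6A and a transcript too scarce to give a peak cannot be told apart.

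**Figure D1:**
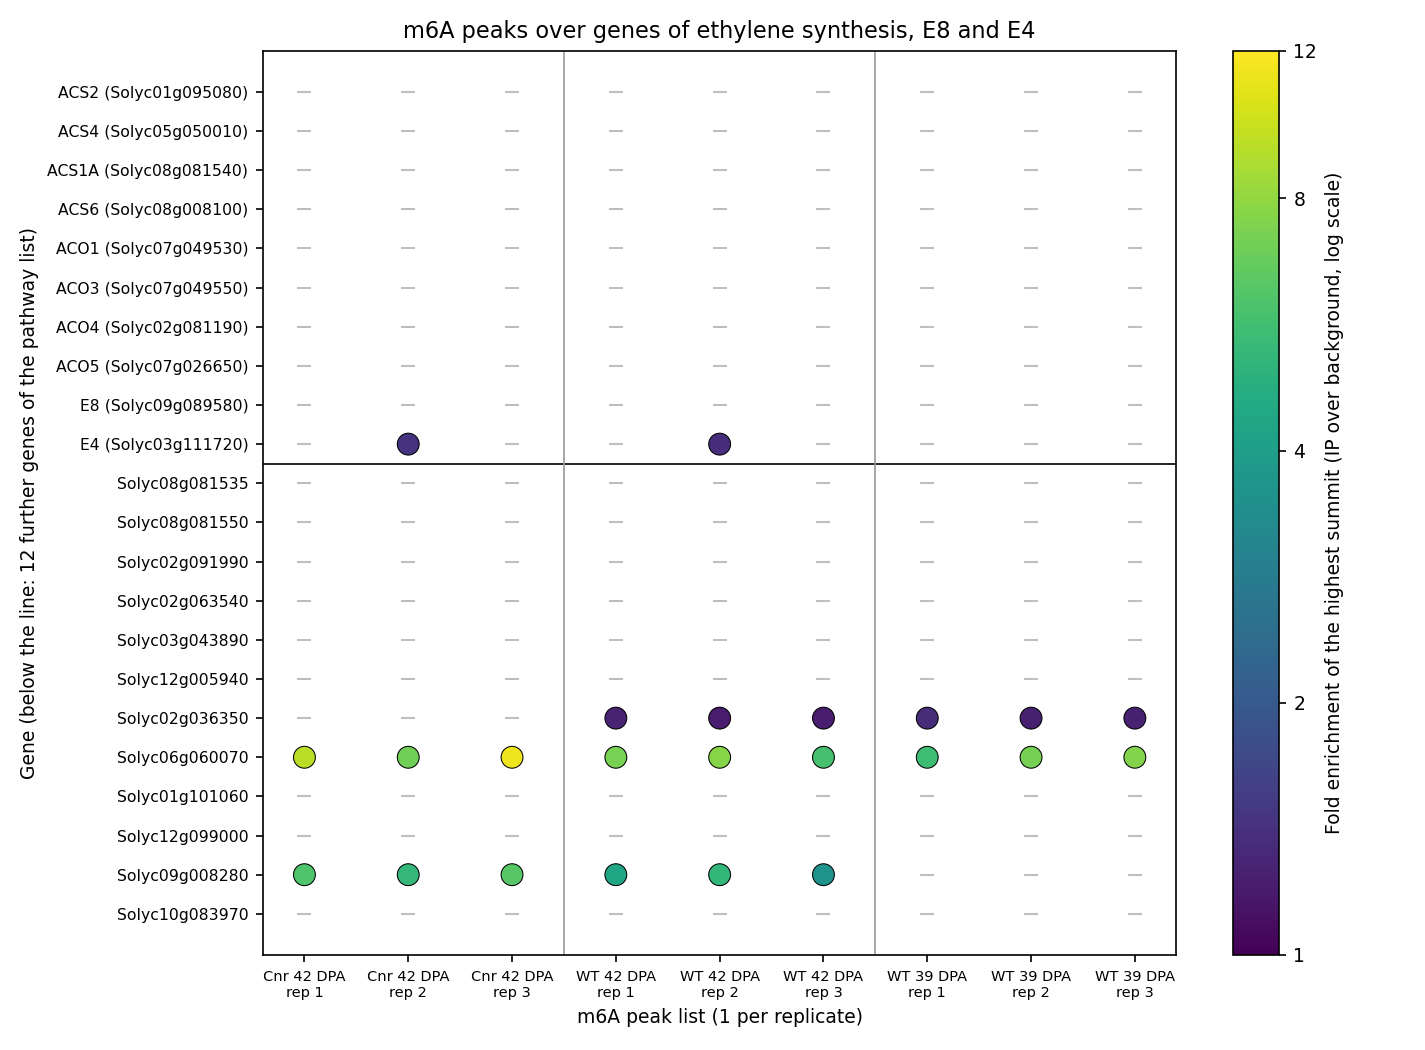
Each row is a gene and each column 1 of the 9 lists, with Cnr 42 DPA on the left, then WT 42 DPA and WT 39 DPA. A circle marks a listed peak, coloured by the fold enrichment of its highest summit on a log scale, and a dash marks no peak. Above the line, the 10 genes hold 2 circles, both in the row of E4, and below it 3 of the 12 further genes of the pathway list have peaks.

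The next gene with a peak on either side of each locus was taken by locus number, which gives no distance. These flanking genes were chosen for having a peak, and 11 of the 18 different ones had it in all 9 lists. Of all genes with a peak, 73.6% had it in all 9. Both flanking genes were in all 9 lists for ACS2 (Solyc01g095070 and Solyc01g095120), for ACS1A (Solyc08g081530 and Solyc08g081570), for ACO1 and ACO3, which share theirs (Solyc07g049500 and Solyc07g049570), and for ACO5 (Solyc07g025520 and Solyc07g026670). The flanking genes of E8 had peaks in fewer lists, with 5 for Solyc09g089560 and 1 for Solyc09g089630. Those of ACS6 had 8 for Solyc08g008040 and 3 for Solyc08g008120, and those of ACS4 had 9 for Solyc05g049990 and 3 for Solyc05g050020. For ACO4 the counts were 9 for Solyc02g081170 and 7 for Solyc02g081290.

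The lists name 3 of the 9 peakless genes as neighbours of a peak. ACS1A, placed between 64688673 and 64691323 on chromosome 8 of the SL3.0 genome, was the gene with the nearest start site to a peak over Solyc08g081530 in all 9 lists, at 4779 to 4804 bp. ACS4 was the next gene downstream of a peak in all 9 lists, at 37503 to 40328 bp, and ACO5 likewise, at 80474 to 80508 bp. The other 6 genes were named in no column of any list.

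E4 had a peak in replicate 2 of Cnr fruit at 42 DPA and in replicate 2 of wild-type fruit at 42 DPA, and in no replicate of wild-type fruit at 39 DPA. In Cnr replicate 2 the peak ran between 63863280 and 63863498 on chromosome 3 (SL3.0, positions as deposited), and in wild-type replicate 2 between 63863274 and 63863479. In both lists it began and was centred in exon 2 of E4 and ended in its 3′ UTR. The same stretch is the 3′ UTR of Solyc03g111730, a gene annotated with cysteine-type peptidase activity, and both peaks were assigned to both genes. The library kit is not stated to keep the strand, so that the fragments of the 2 genes cannot be told apart.

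The fold enrichment at E4 was 1.44 in Cnr replicate 2, against 1.37 in wild-type replicate 2 at 42 DPA. The 95% exact Poisson interval was 1.376 to 1.504 in Cnr and 1.327 to 1.405 in wild type, which covers the counting error of the IP fragments only. The intervals overlap, and with 1 listed value in each group there is no test of the difference. The peak rested on many fragments, namely about 1969 IP fragments over a background of 1368 in Cnr, against 4838 over 3542 in wild type. Its −log10 q was 49.4 in Cnr and 91.4 in wild type.

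As a multiple of the library's floor, the background at the E4 summit was 30.5 in Cnr fruit and 74.4 in wild-type fruit at 42 DPA, a ratio of 0.409 of Cnr to wild type. The IP fragments were 43.8 times the floor in Cnr and 102 times in wild type, a ratio of 0.431. Input and IP at this site thus differed by much the same factor between the 2 libraries, and the ratio of the fold enrichments was 1.05. No value is given for wild-type fruit at 39 DPA, and in bulk tissue fewer cells with a transcript and less transcript per cell cannot be told apart.

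**Figure D2:**
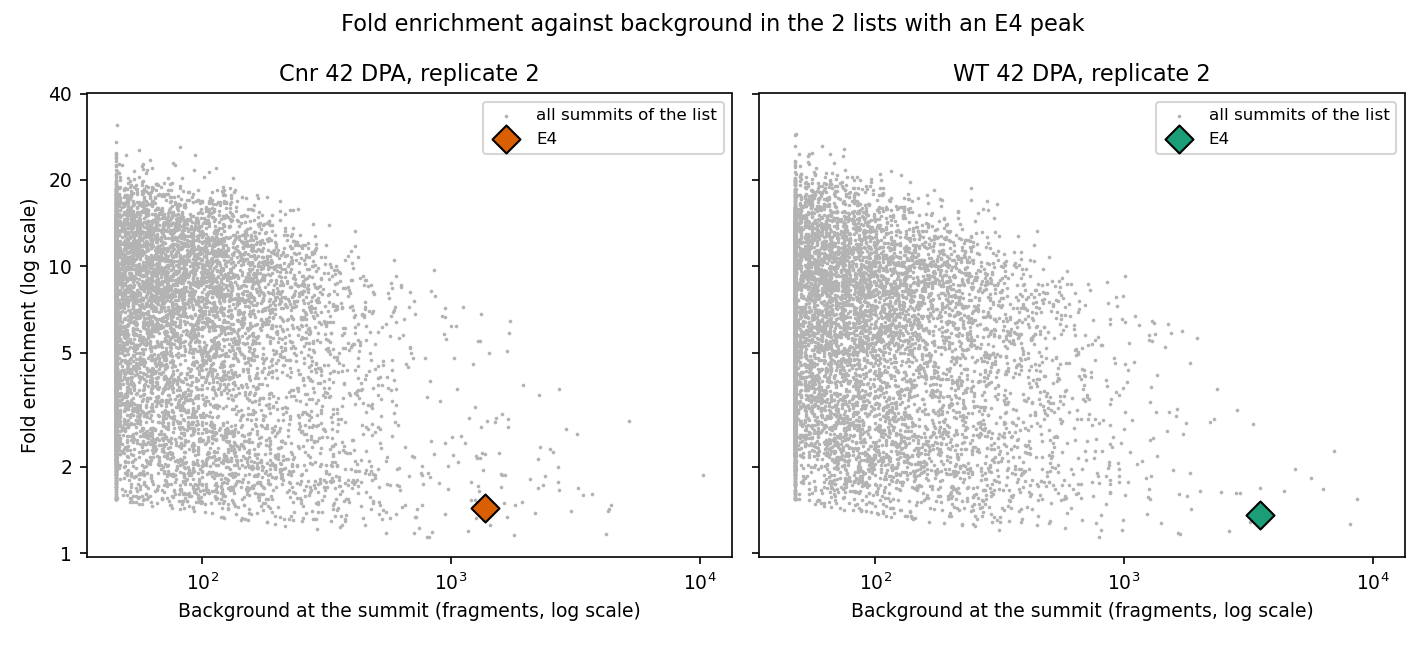
Each grey point is a summit, with its background in fragments on the x axis and its fold enrichment on the y axis, both on log scales, in Cnr 42 DPA replicate 2 on the left and WT 42 DPA replicate 2 on the right. The diamond is E4, which lies at the right-hand and lower edge of both lists, with fold enrichments of 1.44 in Cnr and 1.37 in wild type.

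Among the summits of its list the E4 peak stood at the weak end by enrichment and at the high end by input. In Cnr replicate 2, 81 of 10516 summits (0.770%) had a lower fold enrichment and 49 had a higher background. In wild-type replicate 2, 47 of 10280 summits (0.457%) had a lower fold enrichment and 7 a higher background. By p-value it was nearer the middle, since 25.8% of the summits in Cnr replicate 2 and 36.7% in wild-type replicate 2 had a weaker one.

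The other lists held summits as weak. At the background of E4 in Cnr, the weakest p-value listed in each library corresponds to a fold enrichment of 1.10, and at its background in wild type to one of 1.06. Between 25 and 50 summits of each list had a background at least as high as E4 in Cnr, between 14 and 27 of these had a fold enrichment under 2, and the lowest lay between 1.08 and 1.27. Replicates 1 and 3 of Cnr and of wild type at 42 DPA, whose backgrounds differed from those of replicate 2 of their group by a median of 0.529% to 1.06%, had no listed peak at E4.

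A peak in only 2 lists was uncommon. Of the genes with a peak, 377 (3.37%) had one in 2 lists, as E4 did, and 8224 (73.6%) in all 9. When peaks that overlap by at least 1 bp were merged, 574 of 12119 regions had a peak in exactly 2 lists, and 15 of these (2.61%), with E4 among them, had it in replicate 2 of Cnr and of wild type at 42 DPA. An even share for each of the 36 pairs of lists would be 2.78%, but the pairs were far from even, with 204 regions for Cnr replicates 1 and 3. Among the pairs of a Cnr list with a wild-type list at 42 DPA, this pair held the most, with 15. The next held 5 (Cnr replicate 2 with wild-type replicate 3). Over all 36 pairs, the pair with E4 had rank 9. Across groups, replicate 2 of wild type at 42 DPA with replicate 1 at 39 DPA held 25. Replicate 2 of Cnr with replicate 1 of wild type at 39 DPA held 18. The cause was not tested. Without the replicate 2 libraries none of the 10 genes had a peak.

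**Figure D3:**
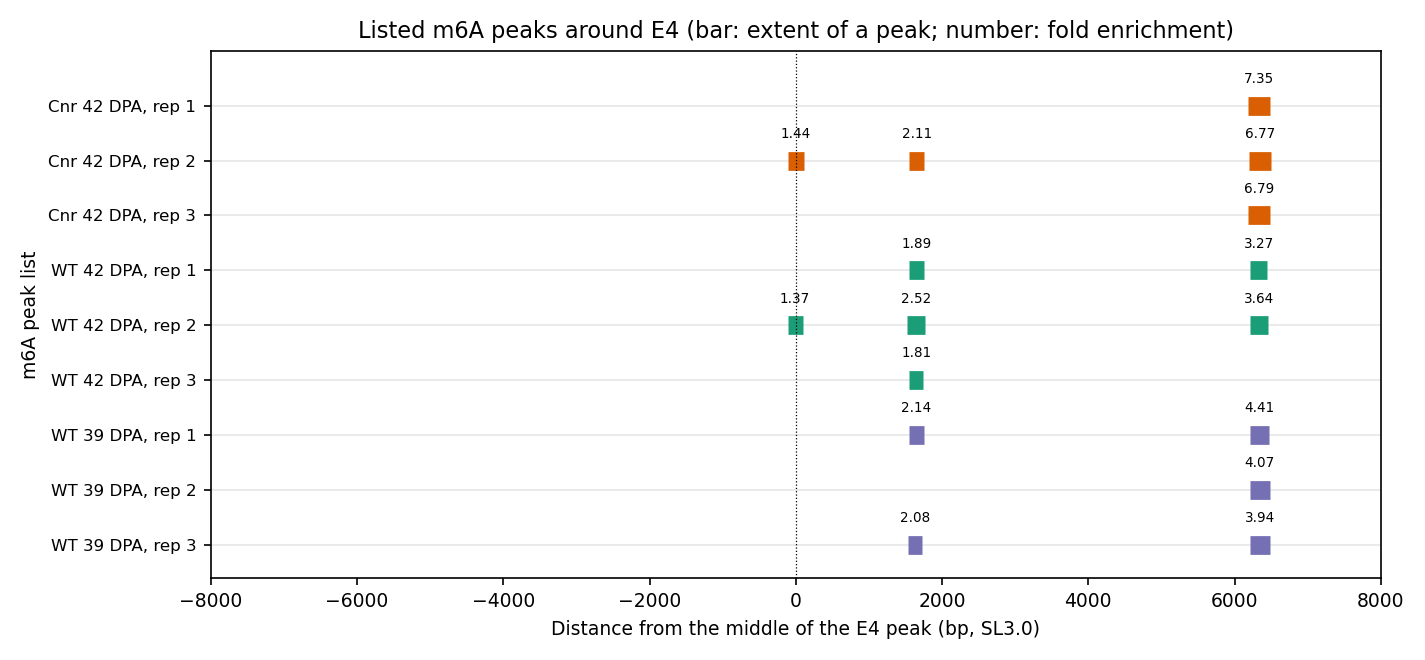
The bars show the listed peaks from 8 kb before to 8 kb after the middle of the E4 peak (x axis, bp), 1 row for each list, with Cnr 42 DPA on top, then WT 42 DPA and WT 39 DPA, and the number above a bar is its fold enrichment. The peak at 0 appears in replicate 2 of Cnr (1.44) and of WT 42 DPA (1.37), the next one to its right lies in exon 1 of Solyc03g111730 in 6 lists, and nothing is listed to its left.

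Solyc03g111730, the gene that shares the E4 site, had a peak of its own in exon 1, within 63864903 and 63865160 on chromosome 3. Its fold enrichment was 2.11 in Cnr replicate 2, the only Cnr list with it. In wild-type fruit at 42 DPA it was 1.89, 2.52 and 1.81, and in wild-type fruit at 39 DPA 2.14 in replicate 1 and 2.08 in replicate 3. The background there was 2.68 times the floor in Cnr fruit, against 6.54 times in wild-type fruit at 42 DPA, and 6.54 times in wild-type fruit at 42 DPA, against 2.29 times at 39 DPA. The enrichments of the groups overlapped, while the background was highest in wild type at 42 DPA, both at this site and, against Cnr, at the E4 site.

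None of the 10 genes could enter a test between groups, since the test needed a peak in all 6 libraries compared. Over the 8007 regions with such a peak in Cnr and wild-type fruit at 42 DPA, 2167 (27.1%) differed in fold enrichment by at least 1.5-fold with a Benjamini-Hochberg adjusted p under 0.05 in limma, 2014 higher and 153 lower in Cnr. With each library centred on its median, which took 0.39 off every log2 difference, 432 were higher and 621 lower. Between wild-type fruit at 42 DPA and at 39 DPA, 389 of 8550 regions (4.55%) were called, 132 higher and 257 lower at 42 DPA. The direction of this split turned with the setting, with 182 higher and 178 lower when the libraries were centred and 218 higher and 173 lower without replicate 3 of wild type at 42 DPA. For the IP signal, the multiple of the floor reached by the IP fragments, the calls made up 37.8% of regions for Cnr against wild type and 9.92% for 42 DPA against 39 DPA. By the rule that a peak counts where all 3 replicates of a group have it, 0 of the 10 genes had one in any group. At least 2 of 3 replicates gave 0 as well. For a single gene, 3 lists with a peak against 3 without could give no two-sided Fisher's exact p below 0.10.

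The steps before and beside the 10 genes were looked at through 12 further genes, listed as S-adenosylmethionine synthetase, ACC synthase and ACC oxidase genes. Of these, 3 had a peak and 9 had none, against 52.2% with a peak among all gene identifiers named in the lists. That share runs high because the identifiers named are those near peaks, so no scarcity of peaks can be read from it. Only Solyc06g060070 and Solyc09g008280 could be tested for Cnr against wild type, and only Solyc02g036350 and Solyc06g060070 for 42 against 39 DPA. None of these regions passed the call rule, which 27.1% and 4.55% of all regions passed. The main limma fits gave every region of a comparison the same SE. Their p-values therefore do not measure the spread of a single gene's own replicates. The 3 genes with a peak are named, a choice made after their values were seen. Solyc09g008280, annotated with methionine adenosyltransferase activity, the step that makes S-adenosylmethionine, had a peak in all 3 Cnr lists and all 3 wild-type lists at 42 DPA, and in none at 39 DPA. Solyc02g036350, annotated only with oxidoreductase activity, had one in all 6 wild-type lists and in none of Cnr. Solyc06g060070, likewise annotated with oxidoreductase activity, had one in all 9 lists.

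The peak of Solyc09g008280 lay in its 3′ UTR, within 1751207 and 1751808 on chromosome 9, had 2 summits and was shared with Solyc09g008295. At the higher summit the fold enrichment was 6.03, 5.22 and 6.21 in Cnr replicates 1 to 3, against 4.34, 5.14 and 3.54 in wild-type replicates 1 to 3 at 42 DPA. Every Cnr value lay above every wild-type value. The means were 5.82 ± 0.523 in Cnr and 4.34 ± 0.799 in wild type (SD, n = 3 each). The log2 difference was 0.43 (SE 0.17, shared by all regions), with an adjusted p of 0.0276 in limma, and stayed under the 1.5-fold limit. With the replicate number as a block, the paired fit gave an adjusted p of 0.0512, the mean of the 2 summits gave a log2 difference of 0.24 with an adjusted p of 0.240 in limma, and with each library centred on its median the log2 difference was 0.05. Leaving out 1 replicate gave 0.30 to 0.56, the lowest without replicate 3 of wild type, where the adjusted p in limma was 0.192. The IP signal alone was 14.3 ± 1.34 times the floor in Cnr and 12.2 ± 2.18 times in wild type (SD, n = 3 each), with an adjusted p of 0.192 in limma. The background was 2.44 times the floor in Cnr and 2.79 times in wild type. At the lower summit the enrichments overlapped, with 2.14, 1.93 and 2.10 in Cnr and 2.44, 2.80 and 1.87 in wild type. Over all 12119 merged regions, 51 (0.421%) had a peak in all 6 lists at 42 DPA and in none at 39 DPA.

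The peak of Solyc02g036350 ran from the 5′ UTR into intron 1, within 31052714 and 31052910 on chromosome 2, and belonged to no other gene. Its fold enrichment was low in all 6 libraries, with 1.27, 1.21 and 1.22 in wild-type replicates 1 to 3 at 42 DPA, against 1.36, 1.24 and 1.26 at 39 DPA. The values overlapped, and the log2 difference was −0.06 (SE 0.14, shared by all regions) with an adjusted p of 0.826 in limma. The −log10 q lay between 1.42 and 8.20, so that none of these peaks reached 10. In all, 196 regions (1.62%) had a peak in all 6 wild-type lists and in none of Cnr.

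**Figure D4:**
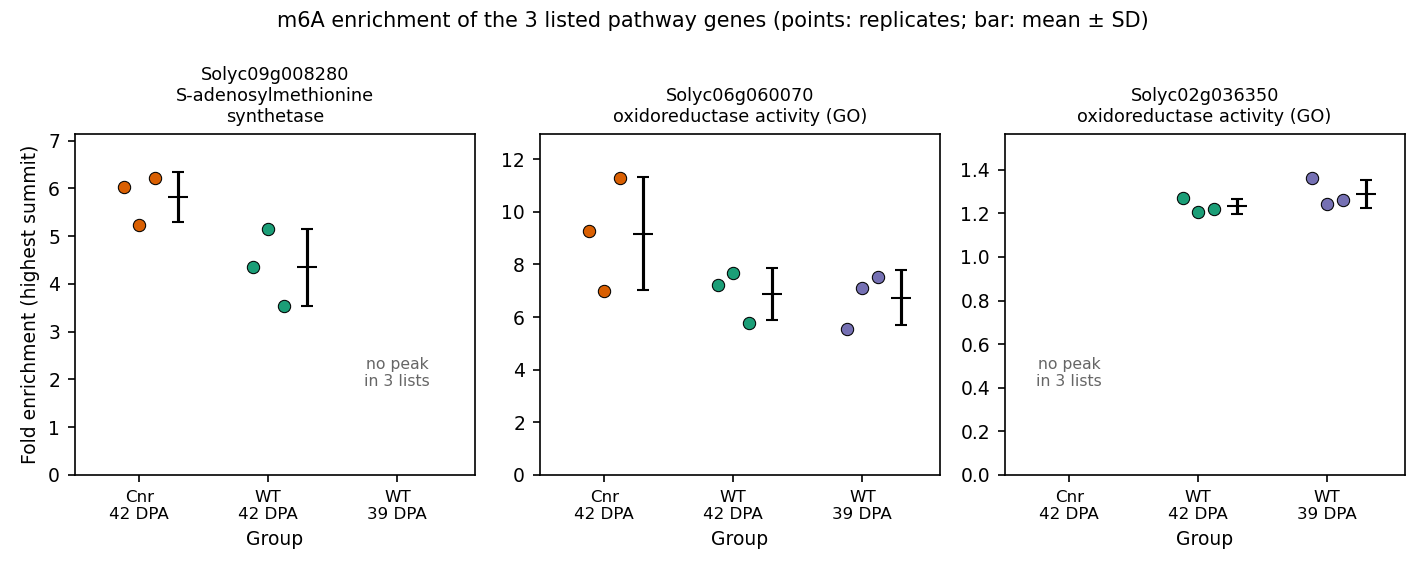
Points are the fold enrichment of the highest summit in each replicate, and the bar beside them is the mean with its SD (n = 3), for Cnr 42 DPA, WT 42 DPA and WT 39 DPA from left to right, with a separate y axis from 0 in each panel. Solyc09g008280 has no peak at 39 DPA and averages 5.82 in Cnr and 4.34 in wild type at 42 DPA, Solyc06g060070 overlaps between groups, and Solyc02g036350 has no peak in Cnr and lies under 1.4 in wild type.

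The peak of Solyc06g060070 began in its 3′ UTR and ended past the gene, within 38094895 and 38095221 on chromosome 6. At 42 DPA the centre was intergenic in Cnr replicate 2 and wild-type replicates 1 and 2, and in the 3′ UTR in the rest. At 39 DPA the centre was intergenic in every list. The peak was also assigned to Solyc06g060060. Its fold enrichment was 9.25, 6.99 and 11.3 in Cnr replicates 1 to 3, against 7.20, 7.68 and 5.78 in wild-type replicates 1 to 3 at 42 DPA. Cnr replicate 2 lay within the wild-type range. The log2 difference was 0.40 (SE 0.17, shared by all regions), with an adjusted p of 0.0449 in limma, and stayed under the 1.5-fold limit. The paired limma fit with the replicate block gave an adjusted p of 0.0758. Centred on the library medians, the log2 difference was 0.01. Leaving out 1 replicate gave 0.23 to 0.58, with 0.23 and an adjusted p of 0.332 in limma without Cnr replicate 3, and 0.28 and 0.274 without replicate 3 of wild type. Wild-type fruit at 39 DPA gave 5.55, 7.11 and 7.53, which overlapped the values at 42 DPA, and the log2 difference of 42 DPA to 39 DPA was 0.03 (SE 0.14) with an adjusted p of 0.909 in limma. The background was on the floor in all 9 libraries, so that these values follow the IP signal alone.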

How the data were processed

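The series holds 18 libraries, labelled as 1 IP and 1 input for each replicate, and 9 peak lists. The backgrounds of the lists of a group differed by less than the sampling noise, so the lists do not show separate inputs. Per the labels and methods, the authors cleaned reads with FastQC 0.11.7, cutadapt 1.16 and Trimmomatic 0.30, aligned them to SL3.0 with BWA, ran MACS for every IP library and annotated them with ITAG3.2. The deposited fold enrichment is a ratio of IP to background computed by the authors with MACS. The deposited −log10 p and −log10 q values come from the same Poisson model, and the deposited peak score is 10 times the −log10 q, cut to a whole number. From the fold enrichment and p, the numbers of IP and background fragments were worked back, which was tested on simulated data, and the IP numbers were whole to within 0.1 for at least 99.7% of summits in each list. The floor was the most frequent background.

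Peaks overlapping by at least 1 bp were merged, the highest summit of each library was kept, and log2 values of regions with a peak in all 6 libraries were fitted with limma 3.58.1 in R 4.3.3, with Benjamini-Hochberg adjustment over all regions. The fit gave every region the same standard error, so that every region past 1.5-fold was called. A test of the input level was planned and not run, because the lists of a group shared their background. The main fits were unpaired, and the paired fits with the replicate number as a block were an alternative for both comparisons. Deviations from the group means of the same-numbered replicates of both 42 DPA groups correlated at 0.184, 0.442 and 0.341 over 8007 regions. Differently numbered pairs reached 0.190 (Cnr 1 with wild type 3) and 0.231 (Cnr 3 with wild type 1), and no source says that a number marks a shared batch. Same-numbered replicates of wild type at 42 and 39 DPA correlated at 0.227, 0.337 and 0.0847. Differently numbered ones there reached 0.167 (42 DPA replicate 1 with 39 DPA replicate 3). The labels call the replicates independent. Reads were not counted over genes here, and the depth in reads was not used.

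The 10 genes, the 12 further genes and the tests were chosen with earlier results of these data known. Named were the 10 genes, any gene sharing a region with a peak of theirs, and those of the 12 that were called or, after their values were seen, had a peak. The names of the 10 were given with the gene list. The RefSeq gene table holds no Solyc identifiers and could not be joined to them, and the classes of the 12 were not checked against an annotation. No sequence is shown, since no genome was used.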

Additional observations from a re-analysis of the deposited data

How the results depend on the processing

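No member gene entered a test between groups under any of the alternatives run. Of the 10, 0 had a peak in all 3 replicates of a group under each setting tried, leaving out any 1 replicate included (0 to 0). Neither result is a check, since both were fixed by the lists and no setting adds a peak. E4 had a peak in 1 replicate of Cnr and in 1 of wild type at 42 DPA, and the other 9 genes had none. The single gene with a peak, E4, was not counted when peaks enriched less than 2-fold were dropped (0), when only peaks assigned to no other gene were kept (0), or without the replicate 2 libraries (0), 3 settings added after the data were seen, while a −log10 q of at least 10 kept it. Of the 12 further genes, 1 in place of 2 had a peak in all 3 replicates at 39 DPA with an enrichment of 2-fold or more, or a −log10 q of at least 10. With peaks assigned to no other gene, 0 in place of 2 did in Cnr, 1 in place of 3 in wild type at 42 DPA and 1 in place of 2 at 39 DPA.

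Over all regions, the count called in fold enrichment between Cnr and wild type at 42 DPA moved to 1053 with centred libraries and to 414 with a 2-fold limit, and that of IP signal moved from 3030 to 1912 with centred libraries. Between 42 and 39 DPA, 207 regions were called on log2 of the fold enrichment plus 1 and 52 with a 2-fold limit. The cause was not tested. The centred split between the stages was 182 higher and 178 lower, against 132 and 257 uncentred. Leaving out 1 replicate gave 1666 to 3112 and 2673 to 3657 calls for Cnr in fold enrichment and IP signal, and 372 to 491 and 831 to 954 for the stages. The replicate block left the counts at 2167, 3030, 389 and 848, and no call changed with it. This is no check on the calls, since every region past 1.5-fold was called and the block leaves the log2 differences as they are. The paired adjusted p of Solyc09g008280 was 0.0512. For a transcript with no listed peak the files allow no limit on its m6A.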
